A study of Mus musculus with 8 samples.

Results

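The genes of the cytosolic ribosomal proteins were followed in neural progenitor cells (NPC) and in the mouse embryonic stem cells (ESC) they were derived from, once through reads in exons and once through reads in introns. Members were all genes whose name reads Rpl or Rps and a number, Rplp0 to Rplp2, or Rpsa, without the ribosomal S6 kinases (names starting Rps6k). The rule found 89 of 21202 named genes, of which 63 had exon values, 84 had intron values and 58 had both. Of the 89, 77 were core ribosomal protein genes, 46 of the large and 31 of the small subunit. A further 8 were paralogs, near copies with a gene of their own, and 3 carried pseudogene names. Rps19bp1 matched by name only, since it codes for a protein that binds Rps19 and is not part of the ribosome.

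The NPC samples came from 1 clone, so a property of that clone and of the cell type cannot be told apart. The ESC samples were the F1-21.6 line itself, grown on inactivated mouse embryonic fibroblasts (MEFs) with serum and leukaemia inhibitory factor. Both cell types share the hybrid 129Sv-Cast/EiJ background. Total RNA was depleted of ribosomal RNA and sequenced without selection for poly(A) tails, so spliced messenger RNA and unspliced introns were read together. Each cell type had 2 biological replicates with 2 technical libraries each, 8 libraries in all. Exon levels are the authors' RPKM (reads scaled to feature length and library depth), pooled over a cell type, and come with the authors' adjusted p and log2 fold change, taken as NPC over ESC. Intron levels are per biological replicate, with the technical libraries combined by the authors.

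Ribosomal proteins are assembled with ribosomal RNA in the nucleolus into the small subunit, which decodes the messenger RNA, and the large subunit, which joins amino acids. Most of their messenger RNAs begin with a terminal oligopyrimidine (TOP) run, a C followed by pyrimidines, through which the mTOR pathway adjusts their translation. Their genes have left many processed pseudogenes, intron-less copies pasted elsewhere in the genome, and many of their introns hold small nucleolar RNAs (snoRNAs), which guide the modification of ribosomal RNA.

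The windows below surround the annotated transcription start of some of these genes. They are shown because the members moved together and a TOP run is the feature of the start that the family is best known for. They are RefSeq sequences of GRCm38.p6, 40 bases before the annotated start and 20 bases from it on, 5′ to 3′ on the gene's strand. Capitals mark the longest run of pyrimidines read from a C lying within 5 bases of the annotated start, where it reached 5 bases. Pyrimidines before that C were not counted, as in Rpl7a, where ttccctctt directly precedes the capitals. Rpl27a, Rpl13a, Rpl7a and Rplp2 host snoRNAs, Rpl15 and Rps9 do not, and Rpl5 and Rpl10a are shown as members with no such run.
Rpl27a, chr7:109519155-109519214, plus strand: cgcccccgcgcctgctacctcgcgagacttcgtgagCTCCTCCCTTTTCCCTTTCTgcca
Rpl15, chr14:18270967-18271026, minus strand: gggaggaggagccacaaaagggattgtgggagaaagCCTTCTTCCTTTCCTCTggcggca
Rpl13a, chr7:45128726-45128785, minus strand: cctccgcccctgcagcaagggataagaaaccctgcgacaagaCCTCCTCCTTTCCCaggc
Rpl7a, chr2:26910767-26910826, plus strand: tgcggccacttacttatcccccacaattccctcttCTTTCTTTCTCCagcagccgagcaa
Rplp2, chr7:141447611-141447670, plus strand: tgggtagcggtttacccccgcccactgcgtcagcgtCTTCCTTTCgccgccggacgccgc
Rps9, chr7:3704001-3704060, plus strand: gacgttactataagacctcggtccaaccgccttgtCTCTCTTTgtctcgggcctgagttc
Rpl5, chr5:107900488-107900547, plus strand: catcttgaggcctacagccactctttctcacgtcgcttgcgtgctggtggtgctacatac
Rpl10a, chr17:28328525-28328584, plus strand: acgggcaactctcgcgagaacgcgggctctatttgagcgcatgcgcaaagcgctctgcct

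A promoter entry of 250 bases before to 50 after the start was matched by symbol for 57 of the 77 core genes, in 67 windows. Such a TOP run was found in 43.3% of these windows, against 18.3% of all 32851 mouse promoter windows. CCGGAAG, the core of sites for the ETS factor GABP, was in 37.3% of the core windows and 8.86% of all. AAGATGG, the core of sites for YY1, was in 16.4% of the core windows and 6.34% of all. GGGCGG, the SP1 box, was in 61.2% of the core windows and 35.7% of all. CACGTG, the E-box that Myc binds, was in 11.9% of the core windows and 7.15% of all, and TATAAA in 8.96% of the core windows and 13.6% of all. These last 5 motifs were searched on both strands of the 300 bases, and overlaps between motifs were allowed. A match is a description of letters and not a bound site. For these 5 motifs, no match says only that the letters are not in that window. For the TOP run, no match says only that no long enough run could be read from a C within 5 bases of the annotated start. A counted run can also be the end of a tract that opens farther upstream. Pyrimidine runs farther from that start, such as ctctttctc in the Rpl5 window above, were not counted. The 27 core genes with a TOP run had a median intron log2 fold change of -2.84 and the 30 matched genes without one of -2.66. For exons in the authors' deposited table the medians were -1.62 over 19 genes with the run and -1.91 over 19 without it.

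Fewer intron reads of nearly every ribosomal protein gene were found in NPC than in ESC. Over the 84 members with intron values the median level was 5.76 RPKM in NPC replicate 1 and 13.7 in NPC replicate 2, against 69.7 in ESC replicate 1 and 71.6 in ESC replicate 2. Both NPC replicates lay far below both ESC replicates, which were nearly alike. In bulk RNA, fewer cells of a type and less RNA per cell cannot be told apart. Members supplied 0.120% of all intron reads in NPC replicate 1 (Wilson 95% interval 0.117 to 0.123%) and 0.308% in NPC replicate 2 (0.303 to 0.312%). They supplied 1.24% in ESC replicate 1 (1.23 to 1.25%) and 1.23% in ESC replicate 2 (1.22 to 1.24%). These shares rest on 7343 and 17025 member reads in NPC and 76809 and 86098 in ESC, and the intervals cover counting error only. All reads were recovered from the RPKM values, and their sum lay above the read number behind the RPKM in every column. The intervals do not cover that difference. Among the 100 genes of highest mean intron RPKM, 5 were members in NPC and 37 in ESC.

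**Figure D1:**
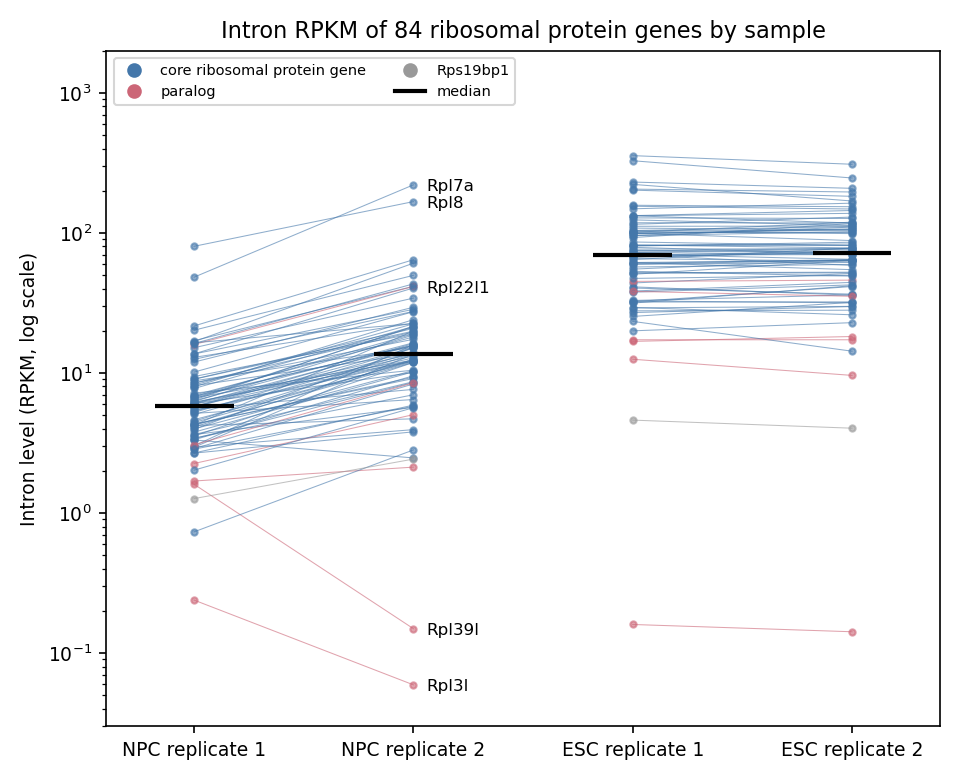
Intron level (RPKM, log scale) of the 84 members with intron values in each biological replicate, the NPC replicates on the left and the ESC replicates on the right, with lines joining a gene's replicates of 1 cell type and bars at the median. Nearly all core genes sit lower in NPC, NPC replicate 2 sits above NPC replicate 1 (medians 13.7 and 5.76), and Rpl7a alone reaches its own ESC level in NPC replicate 2.

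The NPC replicates themselves differed, which touches every intron value below. Of 83 members with a mean of at least 1 RPKM, 81 were higher in NPC replicate 2 than in NPC replicate 1, by a median ratio of 2.45. Over all 8811 genes tested the same ratio was 1.55, and between the ESC replicates it was 1.01 for members and 1.02 for all genes. The 237 olfactory and vomeronasal receptor genes, which neither cell type is known to use, had a median intron level of 0.747 RPKM in NPC replicate 1, 0.0822 in NPC replicate 2, 0.0283 in ESC replicate 1 and 0 in ESC replicate 2. With that level taken off each column, an alternative chosen after seeing the data, 68 of 83 members were still called lower, with a median of -2.79. Of 8023 genes tested that way 2094 were called lower. The median over all tested genes was -0.74, against -0.43 with nothing taken off. All 6 ESC markers were lower in NPC and all 6 NPC markers higher in the authors' deposited table. Of 4 neuron markers tested there, Dcx (8.85) and Map2 (7.26) were higher in NPC and Stmn2 (-7.60) and Tubb3 (-2.34) lower, as log2 fold changes in the authors' deposited table. Of 10 feeder fibroblast markers tested there, 7 were lower in NPC and none higher, and their summed exon level was 11.5 RPKM in NPC and 80.2 in ESC. Col1a1 was at 0.337 RPKM in NPC and 4.96 in ESC, and the part of feeder RNA in the members' change was not tested.

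By limma on log2(RPKM + 1) with Benjamini-Hochberg adjustment over all 8811 genes, 71 of 83 members were lower in NPC, where 34% of all genes were, and 0 were higher, where 13.2% of all genes were. With each column centred on its median, 75 of 83 members and 2165 of 8811 genes were lower. Of the calls over all genes, 49.8% were then decreases, against 72.0% as deposited. At an unadjusted p under 0.05 in limma, 76 members were lower and 0 higher, and no share over all genes was taken at that threshold. The members' median log2 fold change was -2.68, with a range of -4.37 to -0.79, while the median of all tested genes was -0.43. For 82 of 83 members both NPC values lay below both ESC values, as they did for 55.5% of all genes. A log2 fold change of -2 or below, a 4-fold decrease on this scale, was reached by 70 of 83 members and by 6.82% of all genes. The p-values measure the spread between 2 and 2 samples, which may be technical. With no filter on low values, 14 of 84 members were called lower, and 940 of 18655 genes. Without ESC replicate 1, and likewise without ESC replicate 2, only Rpl39l and Rps10 were called. Without NPC replicate 1 the median was -2.12 for members and -0.23 for all genes. Without NPC replicate 2 it was -3.22 for members and -0.61 for all genes. Each of these 4 fits assumes that the lone sample varies as the other pair does.

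Both subunits were lower to a like extent. Of the 46 large subunit genes 38 were called lower, with a median intron log2 fold change of -2.67, and of the 31 small subunit genes 28 were, with a median of -2.80. Rpl10a, a protein of the L1 stalk from which spent transfer RNA leaves, had the largest decrease on the log2(RPKM + 1) scale with all replicates. Rpl39l was lower with a pseudocount of 0.1 (-4.74, against -4.56 for Rpl10a), and without NPC replicate 1 Rpl13a (-4.05) and Rpl39l (-3.99) were lower than Rpl10a (-3.89). Introns of Rpl10a were at 4.29 and 9.32 RPKM in NPC, against 155 and 148 in ESC (log2 fold change -4.37 ± 0.83 SE, limma adjusted p = 0.0014). The groups did not overlap, and the NPC values differed from each other far less than from either ESC value. Rps4x, an X-linked protein of the small subunit, was at 3.42 and 6.98 RPKM in NPC, against 104 and 111 in ESC (-4.19, limma adjusted p = 0.00139). Rpl12, a protein at the base of the ribosomal stalk, was at 3.55 and 11.9 RPKM in NPC, against 128 and 127 in ESC (-4.07, limma adjusted p = 0.00261). Rps20, a protein of the small subunit head, was at 7.17 and 10.5 RPKM in NPC, against 158 and 154 in ESC (-4.02, limma adjusted p = 0.00211). In each of these genes both ESC values stood above both NPC values, and none of the ESC values was under 10 times the higher NPC value.

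Rpl3 and Rpl13, both snoRNA hosts, were among the 8 largest decreases as well. Rpl3, which lies close to the centre where peptide bonds form, was at 3.96 and 15.2 RPKM in NPC, against 133 and 145 in ESC (-3.96, limma adjusted p = 0.00361). Rpl13 had a log2 fold change of -3.93. Rpl13a, a large subunit protein whose introns hold 4 annotated snoRNAs, was at 4.21 and 4.70 RPKM in NPC, against 99.4 and 88.2 in ESC (-4.12, limma adjusted p = 0.00115). That value rests on 2 reads in each NPC replicate and 47 in each ESC replicate, because 82 intron bases were counted for this gene. Rps10, a small subunit protein, was at 0.733 and 2.82 RPKM in NPC, against 32.7 and 31.7 in ESC (-3.69, limma adjusted p = 0.000353). Its value in NPC replicate 1 was no higher than the receptor genes' median of 0.747 RPKM in that replicate.

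The 6 members with the highest intron levels ranged from no call to a deep fall. Rpl8, a core protein of the large subunit at its catalytic centre, was at 80.2 and 167 RPKM in NPC, against 356 and 309 in ESC (-1.51, limma adjusted p = 0.0688). The NPC values were both below the ESC values, yet the change did not pass the threshold. Rpl7a, a large subunit protein that hosts 3 annotated snoRNAs, was at 48.3 and 220 RPKM in NPC, against 231 and 208 in ESC (-1.08, limma adjusted p = 0.281). It was the single member tested whose groups overlapped, since NPC replicate 2 lay between the ESC replicates. Rpsa, also known as the laminin receptor precursor, was at 16.7 and 60.8 RPKM in NPC, against 328 and 247 in ESC (-3.11, limma adjusted p = 0.0098). Rpl41, a very small protein at the interface of the subunits, was at 20.2 and 49.8 RPKM in NPC, against 206 and 196 in ESC (-2.62, limma adjusted p = 0.02). Rpl27a had a log2 fold change of -3.75 and passed in limma (adjusted p = 0.00375). The other members that missed the threshold were Rpl11, Rpl23a, Rpl24, Rpl29, Rpl34, Rpl37, Rps3, Rps14, Rps27 and Rpl22l1, with log2 fold changes between -2.16 and -0.79.

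The 4 X-linked genes were all called lower on introns, with log2 fold changes of -4.19 (Rps4x), -2.98 (Rpl39), -2.60 (Rpl36a) and -2.30 (Rpl10). Their median was -2.79, close to the -2.74 of all core genes. This count and those of the lists below stand beside 71 of 83 members and 34% of all tested genes called lower. The 3 genes of the acidic stalk, which recruits the elongation factors, were also all lower. Rplp0, the anchor of the stalk, was at 2.02 and 5.65 intron RPKM in NPC, against 29.3 and 26.0 in ESC (-2.68, limma adjusted p = 0.00477). Rplp1 had a log2 fold change of -3.01 and Rplp2 of -2.65. Of the 6 genes whose proteins bind Mdm2, the ubiquitin ligase that holds p53 down, 4 were lower on introns. Rpl5, Rpl23, Rps7 and Rps27l passed, with log2 fold changes from -2.60 to -2.33. Rpl11 was at 3.01 and 15.9 RPKM in NPC, against 27.0 and 29.8 in ESC (limma adjusted p = 0.078). Rps27 was at 4.24 and 19.9 RPKM in NPC, against 31.5 and 42.0 in ESC (limma adjusted p = 0.0922). In both of these the NPC values lay below the ESC values while the NPC replicates were far apart.

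On exons most members were lower in NPC as well, by a smaller step. In the authors' deposited table, 50 of 62 members tested were lower, where 33.9% of all 12509 tested genes were, and 1 was higher, where 32.3% were (66.2% in either direction). The members' median log2 fold change in the authors' deposited table was -1.55, against -0.07 over all tested genes. Of the core genes 44 of 52 were lower, with medians of -1.59 over 30 large subunit and -1.58 over 22 small subunit genes in the authors' deposited table. The 11 without a call included Rpl15, Rpl35a, Rpl36, Rpl38, Rpl41, Rps29, Rpl22l1 and the 3 pseudogene names. Rps19bp1, no part of the ribosome, was lower as well (-0.80 on exons in the authors' deposited table, -0.93 on introns in limma). Among 57 members tested in both tables, 41 were lower in both, 8 on introns alone, 7 on exons alone and 1 (Rpl22l1) in neither. Over the 8380 genes tested in both tables, 26.1% were lower in both. The exon values are pooled over replicates, so no spread stands beside them. Whether the authors' adjusted p-values took biological replicates or single technical libraries as samples is not known here.

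Exon levels were set beside the share of coding sequence that a gene has to itself. For each gene, the coding sequence of its main GENCODE M21 transcript was cut into all windows of 50 bases, the length of the reads, and the share absent from the transcripts of every other annotated gene was taken. Of the 52 core genes with exon values, 22 had no such unshared window, and 8 had at least 30%. The 22 had a median authors' exon level of 7.32 RPKM in NPC and 26.5 in ESC. The 8 had a median of 505 RPKM in NPC and 933 in ESC, with a range of 246 to 3101 in ESC. Across the 52 genes, which share libraries, the unshared percentage and the log2 ESC exon level had a Spearman rho of 0.66 and a Pearson r of 0.75. With windows over the whole transcript, untranslated parts included, rho was 0.37 and r was 0.43. The relation to the fold change was weak, with a rho of 0.26 on exons and -0.12 on introns.

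**Figure D2:**
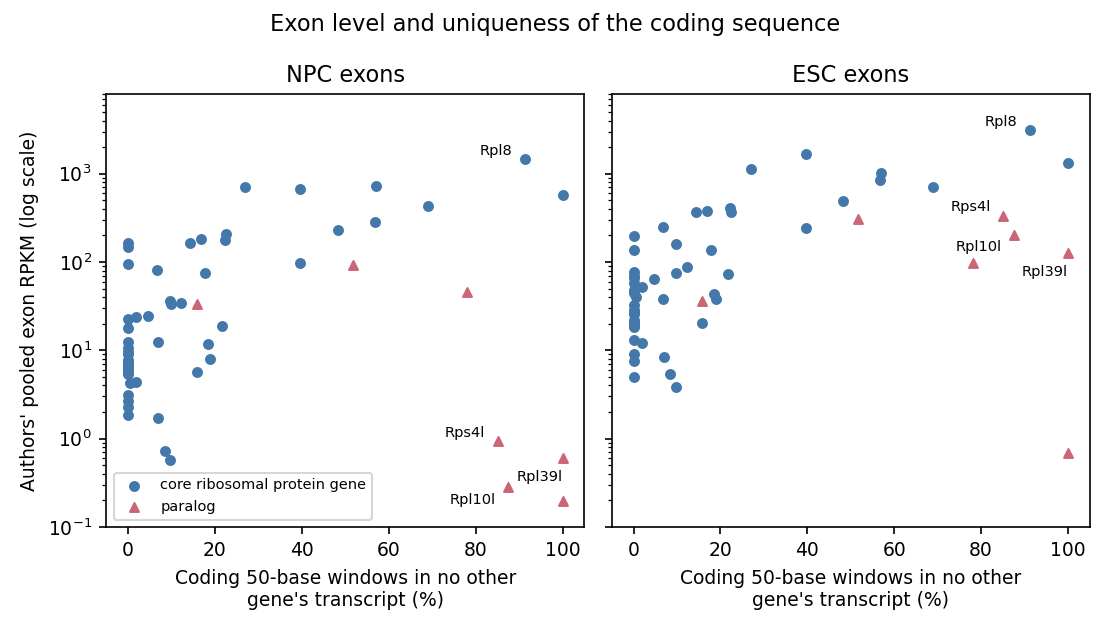
Authors' pooled exon level (RPKM, log scale) in NPC on the left and ESC on the right, against the percentage of a gene's coding 50-base windows found in no other gene's transcript, for core genes (circles) and paralogs (triangles). Core genes with at least 30% unshared windows lie at or above 246 RPKM in ESC, and the 22 core genes at 0% have a median of 26.5 RPKM there.

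Exon levels below intron levels followed the same split. The 2 tables were normalized separately, so a level in one against a level in the other is a ratio of unlike scales. On those scales, 30 of the 52 core genes had a lower exon than intron RPKM in ESC and 23 in NPC, against 3.87% of all genes tested in both tables in ESC and 4.34% in NPC. Among the 22 genes with no unshared window it was 20 in ESC, and among the 8 with at least 30% it was 0. Rpl19, a large subunit protein with no unshared window, was at 2.70 exon RPKM in NPC and 7.49 in ESC by the authors' values, and at 3.98 and 10.4 intron RPKM in NPC, against 59.9 and 63.8 in ESC. How reads that match several places were counted is not stated in the labels or headers.

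All 8 core genes with at least 30% unshared windows were lower in NPC on exons. Rpl8, with 91.3% unshared windows, was at 1469 exon RPKM in NPC and 3101 in ESC in the authors' deposited table (log2 fold change -1.23, adjusted p = 2.8e-07), the highest exon level of any member in both cell types. Its exon fold lay above its intron fold by 0.28. Rps15, a small subunit head protein, showed the largest exon decrease of the 8, at 287 RPKM in NPC and 853 in ESC in the authors' deposited table (-1.72). Rps9, known from yeast to help keep decoding accurate, showed the smallest, at 732 RPKM in NPC and 1014 in ESC in the authors' deposited table (-0.66, adjusted p = 0.0129). Its intron log2 fold change was -2.34.

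Over these 8 genes the median log2 fold change was -1.27 on exons in the authors' deposited table and -2.64 on introns. The exon fold lay above the intron fold in all 8, by a median of 1.34. Without NPC replicate 1 the median difference was 0.72 and the exon fold lay above in 7 of 8, since Rpl8 crossed over. Without NPC replicate 2 it was 1.91, in 8 of 8.

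**Figure D3:**
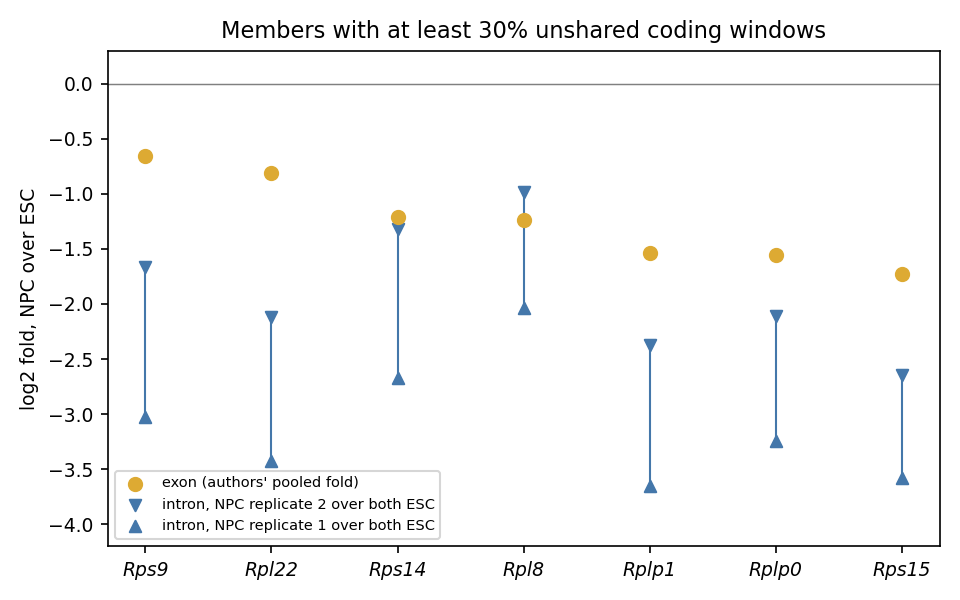
Log2 fold change of NPC over ESC for 7 of the 8 core genes with at least 30% unshared coding windows, as the authors' pooled exon fold (circles) and as the intron fold with NPC replicate 2 alone (downward triangles) or NPC replicate 1 alone (upward triangles) over both ESC replicates. All values are below 0, and only for Rpl8 does the exon fold lie within the range of the intron folds.

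The same order was seen over all members measured both ways. The authors' exon log2 fold change lay above the intron log2 fold change in 50 of 57 members, by a median of 1.05. Over all 8380 genes it lay above in 63.6%, by a median of 0.29. The difference has no replicate error, because the exon table holds no replicate values, and the scales differ, because intron folds were taken on log2(RPKM + 1). Without NPC replicate 1 the median difference was 0.49 for members and 0.04 for all genes, and without NPC replicate 2 it was 1.58 for members and 0.56 for all genes. With intron columns centred it was 0.65 for members, with the exon fold above in 44 of 57, and -0.11 for all genes, with 45.0% above. Genes of ribosome biogenesis had a median difference of -0.54. It was -0.21 with a pseudocount of 0.1, -0.28 with the receptor level subtracted, -0.94 with columns centred, -0.82 without NPC replicate 1 and -0.35 without NPC replicate 2. Across the 52 core genes the exon and intron folds had a Pearson r of 0.30 and a Spearman rho of 0.34, against 0.80 and 0.83 across all 8380 genes, where the folds spread far more widely.

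**Figure D4:**
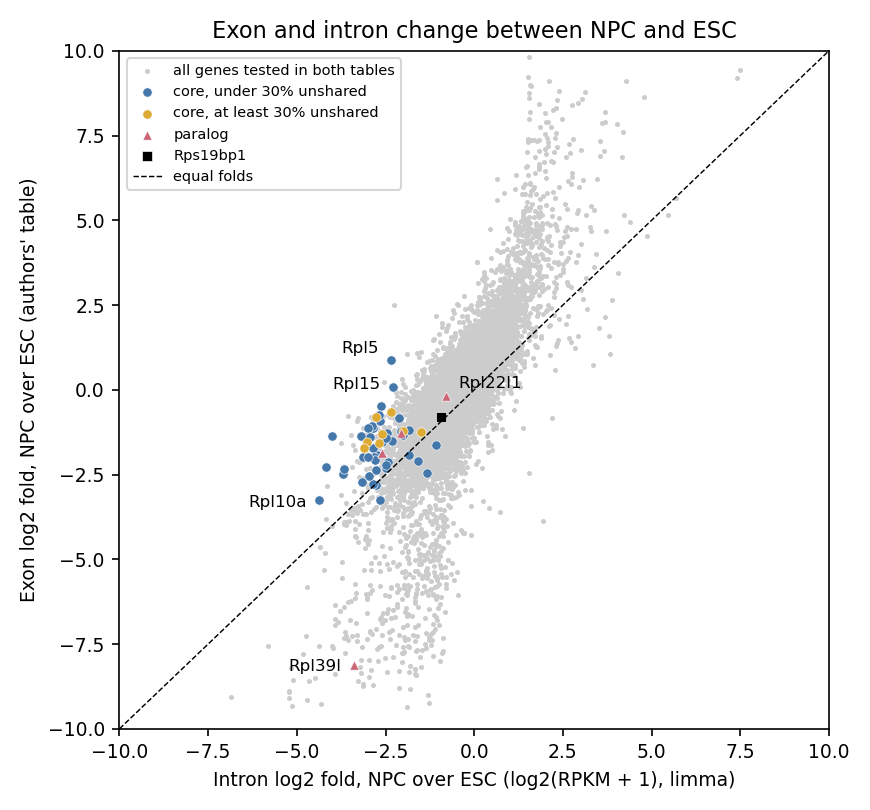
Exon log2 fold change (authors' table) against intron log2 fold change (limma, log2(RPKM + 1)), NPC over ESC, for the 8380 genes tested in both tables (grey) and the 57 members among them (coloured by class), with a dashed line where both are equal. Members form a compact cloud at a median intron fold near -2.7, and 50 of 57 lie above the line.

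Rpl5, Rps20 and Rpl15 stood farthest above that line. Rpl5, which carries 5S ribosomal RNA and binds Mdm2, was at 95.8 exon RPKM in NPC and 44.1 in ESC in the authors' deposited table (log2 fold change 0.89, adjusted p = 0.000519). It was the single member called higher on exons, at less than 2-fold. Introns of the gene were at 13.7 and 28.4 RPKM in NPC, against 104 and 104 in ESC (-2.33, limma adjusted p = 0.0385), a decrease with no overlap of the groups. Rpl5 hosts 3 annotated snoRNAs and none of its coding windows was unshared. Rpl15, a core large subunit protein with no unshared window, was at 166 exon RPKM in NPC and 139 in ESC in the authors' deposited table (0.09, adjusted p = 0.768). On introns Rpl15 was at 5.22 and 15.0 RPKM in NPC, against 43.9 and 51.3 in ESC (-2.28, limma adjusted p = 0.0352). Rpl41, at 148 exon RPKM in NPC and 197 in ESC in the authors' deposited table (-0.48, adjusted p = 0.282), had no unshared window either. Rps20 (14.3% unshared) had a difference of 2.67 and Rpl22 (69.0% unshared) of 1.96. Rpl22 was at 433 exon RPKM in NPC and 708 in ESC in the authors' deposited table (-0.81, adjusted p = 0.00313).

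At the other end, the exon fold lay below the intron fold in 7 members. Without NPC replicate 1 the exon fold lay above in 40 of 57 members, and without NPC replicate 2 in 53. Rpl39l led the 7 with a difference of -4.71, followed by Rpl29 (-1.12), Rps28 (-0.59), Rpl7a (-0.54) and Rpl24 (-0.53). The intron log2 fold change of Rpl39l was -3.40 with a pseudocount of 1 and -4.74 with 0.1, against -8.11 on exons in the authors' deposited table. It rests on 3 reads in NPC replicate 2, so the size of its difference depends on the pseudocount. Leaving out 1 NPC replicate moved the intron log2 fold change of Rpl7a between -2.16 and 0.0077, against -1.62 on exons in the authors' deposited table, so the sign of its difference depends on the replicate. Rps28, a small subunit protein, was at 7.71 exon RPKM in NPC and 69.2 in ESC in the authors' deposited table (-3.25, adjusted p = 1.25e-11). On introns Rps28 was at 6.72 and 15.9 RPKM in NPC, against 64.5 and 77.9 in ESC (-2.66, limma adjusted p = 0.0205). Rpl29, with 9.74% unshared windows, was at only 0.579 exon RPKM in NPC and 3.88 in ESC in the authors' deposited table. Rpl10a had the largest exon decrease of a core gene, at 4.24 RPKM in NPC and 39.7 in ESC in the authors' deposited table (-3.26, adjusted p = 9.03e-17), and 0.501% of its windows were unshared.

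The paralogs behaved less alike than the core genes. Of 6 tested on exons, 5 were lower in NPC in the authors' deposited table, and 3 of these were under 1 RPKM there. Rpl10l, a retrogene copy of Rpl10 known from the mouse testis, was at 0.283 RPKM in NPC and 205 in ESC in the authors' deposited table (log2 fold change -9.63). Rps4l, a copy of Rps4x, was at 0.946 RPKM in NPC and 336 in ESC in the authors' deposited table (-8.65). Both are single-exon genes, so no intron speaks to them, and 87.5% and 85.1% of their windows were unshared. Rpl39l, a copy of Rpl39 found in ribosomes of male germ cells, was at 0.603 exon RPKM in NPC and 125 in ESC in the authors' deposited table (-8.11, adjusted p = 1.97e-55). Its introns were at 1.60 and 0.149 RPKM in NPC, against 17.3 and 17.3 in ESC (-3.40 ± 0.43 SE, limma adjusted p = 0.000109). Rpl39l was one of 2 members tested with a higher value in NPC replicate 1 than in NPC replicate 2, next to Rps16. The receptor genes had the same order, with medians of 0.747 and 0.0822 RPKM, so the NPC values of Rpl39l lie near that background.

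The remaining paralogs had smaller differences. Rps27l, a p53-responsive copy of Rps27, was at 91.5 exon RPKM in NPC and 305 in ESC in the authors' deposited table (-1.87). Rpl7l1, a relative of Rpl7, was at 45.9 exon RPKM in NPC and 98.5 in ESC in the authors' deposited table (-1.27). Rpl36al, a copy of Rpl36a, had intron values only, at 1.69 and 2.12 RPKM in NPC, against 12.5 and 9.60 in ESC (-2.05, limma adjusted p = 0.00116). Rpl22l1, the counterpart that can stand in for Rpl22, was at 33.7 exon RPKM in NPC and 35.7 in ESC in the authors' deposited table (-0.19, adjusted p = 0.747). Its introns were at 16.0 and 41.4 RPKM in NPC, against 45.0 and 46.0 in ESC (-0.79, limma adjusted p = 0.461). It had the smallest intron fold of all members tested. Rpl3l, the striated muscle form of Rpl3, was at 0.195 exon RPKM in NPC and 0.680 in ESC by the authors' values and did not pass the filter in either table. The 3 pseudogene names did not pass the test on exons, and one of them, Rps19-ps3, was at 18.9 RPKM in NPC and 9.48 in ESC in the authors' deposited table (adjusted p = 0.27).

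Annotated snoRNA genes lay inside 30 of the 77 core genes, on the same strand. Host genes had a median intron level of 11.9 RPKM in NPC and 99.7 in ESC, and the 47 others 9.53 in NPC and 69.8 in ESC. Their decreases were close, with median log2 fold changes of -2.80 for hosts and -2.68 for the others, and 26 of 30 hosts and 40 of 47 others were called lower in limma. An intron value of a host can include reads of its snoRNAs, and the part these have in it was not tested. Hosts differed most in being measured at all on exons. Of the 30 hosts, 22 (73.3%) had intron values but no exon values analysed here, against 3 of the 47 others (6.38%), Rpl26, Rpl34 and Rps21. Among other annotated genes with intron values this held for 41 of 207 snoRNA hosts (19.8%) and 568 of 17758 genes without a snoRNA (3.20%). The 25 core genes without exon values had a median intron log2 fold change of -2.98, and 21 of them were called lower in limma. The exon counts above therefore describe mostly genes that host no snoRNA.

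Genes that work with the ribosome were described from lists. Their counts stand against 33.9% lower and 32.3% higher among all genes on exons, and 34% lower and 13.2% higher on introns. Of 49 ribosome biogenesis genes tested on exons, 46 were lower in NPC in the authors' deposited table, with a median of -2.38. Of 54 on introns, 49 were called lower in limma, with a median of -1.97. Npm1, a nucleolar chaperone of ribosome assembly that is also a TOP messenger RNA, was at 6.67 and 15.1 intron RPKM in NPC, against 139 and 159 in ESC (-3.75, limma adjusted p = 0.00381). Dkc1, the pseudouridine synthase of H/ACA snoRNPs, was at 34.6 exon RPKM in NPC and 466 in ESC in the authors' deposited table (-3.90). Rrp12, a factor of subunit export, had an exon log2 fold change of -4.44 and Utp20, a factor of small subunit assembly, of -3.72 in the authors' deposited table.

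Translation factors and other TOP messenger RNAs were more mixed. Of 7 elongation genes tested on exons, 5 were lower and 1 was higher in the authors' deposited table. Eef1g, a subunit of the factor that reloads eEF1A, was at 123 exon RPKM in NPC and 372 in ESC in the authors' deposited table (-1.76). Eef2k, the kinase that inhibits eEF2, was at 63.6 exon RPKM in NPC and 6.22 in ESC in the authors' deposited table (3.21). Its introns were at 2.05 and 3.31 RPKM in NPC, against 0.463 and 0.476 in ESC (1.30, limma adjusted p = 0.000396). Of 11 other TOP messenger RNAs tested on exons, 8 were lower and 1, the intermediate filament gene Vim, was higher in the authors' deposited table. On introns 6 of 16 of these were called lower in limma, with a median of -1.70, a share close to the 34% of all genes. From a list of snoRNA hosts outside the family, 13 of 17 were lower on exons in the authors' deposited table, and 16 of 30 on introns in limma. Mrpl3 and Hnrnpa2b1 are in that list, though GENCODE M21 places no snoRNA inside them. Snhg3, a non-coding snoRNA host, was at 19.9 and 49.9 intron RPKM in NPC, against 387 and 415 in ESC (-3.62, limma adjusted p = 0.00248). Of the ribosomal proteins the name rule leaves out, Fau was lower on exons in the authors' deposited table (-2.26) and on introns in limma (-2.34, adjusted p = 0.00745).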

How the data were processed

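Exon values were read as deposited: RPKM pooled per cell type by the authors, with the log2 fold change and adjusted p-value of the authors' deposited comparison. The submitters' processing notes name DESeq2 1.10.0 and mm9. Aligner, read counter and use of strand are not stated there, in the labels or in the headers, so overlapping genes and near-identical copies are uncertain. Intron values were deposited by the authors with no unit in the header. RPKM was inferred, because whole reads came back for all 18393 genes with signal (tolerance 0.001 reads). A single intron length was possible for 16893 of these genes, and for the others the longest was kept. The recovered intron reads summed to 6115541 and 5533447 in NPC and 6210642 and 6997645 in ESC. The read numbers behind the RPKM were lower in every column, at 5792056 and 5186790 in NPC and 5767704 and 6500767 in ESC. The reason was not tested. Unnamed genes (84 exon, 64 intron) were left out.

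Exon calls used an adjusted p under 0.05 and a mean of at least 1 RPKM. Introns with a mean of at least 1 RPKM were tested with limma 3.58.1 (R 4.3.3, trend) on log2(RPKM + 1), which understates the change of low genes, with Benjamini-Hochberg adjustment. The script was tested on simulated data with the same spread in both cell types, taken from the ESC replicates. That test did not cover NPC replicates that differ more than the ESC replicates, as they did here. Samples were not paired by replicate number. GENCODE M21 gave snoRNA genes and coding windows. The windows, and the split at 30%, were chosen after seeing the data.

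Members and lists were chosen with earlier results of these data known. Named members were the largest exon and intron changes, the highest intron levels, the largest and smallest exon minus intron folds, and the lists of paralogs, X-linked, stalk and Mdm2-binding genes. From other lists at most 3 exon calls each way were named. Some members that the rule names are not reported here. Rps9, Rps10, Rps15, Rpl19 and Col1a1 were chosen after their values were seen.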

Additional observations from a re-analysis of the deposited data

How the results depend on the processing

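The medians and the named members kept their direction on introns under every alternative run, apart from Rpl7a, whose log2 fold change lay between -2.16 and 0.0077 with 1 replicate left out and was positive without NPC replicate 1. How many passed depended on the fit. In the main fit 71 of 83 members were called lower, and 2998 of 8811 genes. With no filter on low values it was 14 of 84 members and 940 of 18655 genes. With a replicate block it was 37 of 83 members and 2632 of 8811 genes. Fewer members were called when either ESC replicate was left out, and more when either NPC replicate was. Replicate numbers share only a number: the differences between replicates 1 and 2 of NPC and ESC correlated at 0.019 over genes. Median intron folds lay between -3.22 and -2.12 with 1 replicate left out. With columns centred on their median, 75 members were called lower at a median of -2.28, the median of all genes moved to -0.04, and 49.8% of all calls were lower, against 72.0% as deposited. On exons, the median was -1.56 with no filter and also without pseudogene names and paralogs, and -1.34 as a log2 ratio of RPKM + 1. With at least 30% unshared windows, 14 of 17 were lower and 0 higher, at a median of -1.30. The 14 were 8 core genes, 5 paralogs and Rps19bp1, and the other 3 were the pseudogene names. At 2-fold or more, 0 members were higher. The cause of these shifts was not tested. The edgeR test on recovered reads was not run. Values of 2 reads, as for Rpl13a in NPC, limit what introns can show.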
